A study of Homo sapiens with 6 samples.

Results

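The genes described here encode the subunits of integrins and laminins. They were chosen by name from the protein-coding rows of the deposited table. Every symbol of an α integrin, a β integrin or a laminin α, β or γ chain was taken. The rule itself used no measured value, but it was set with earlier results of these data known. The rule found 38 of 62754 genes: 18 α integrins, 8 β integrins and 12 laminin chains. Their RNA was measured in HPNE-hTERT, a human line of non-malignant ductal cells of the pancreas that was immortalized with telomerase reverse transcriptase. One group of 3 libraries came from cells kept for 4 days in FOLFIRINOX (5-fluorouracil at 10 µM, SN-38 at 25 nM and oxaliplatin at 5 µM), given to induce senescence, and the other 3 libraries from cells given the vehicle DMSO. All the cells are 1 line, grown in medium with serum and epidermal growth factor. Each library carries a P number in its column name (P14, P15 or P19), shared by 1 library of each group.

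Integrins are receptors of 1 α and 1 β subunit that join the extracellular matrix to the actin or keratin cytoskeleton. Which matrix protein a receptor holds depends mainly on the pair: some bind the RGD motif of fibronectin and vitronectin, others collagens, laminins, or proteins on neighbouring cells. Laminins are cross-shaped trimers of 1 α, 1 β and 1 γ chain and are the main adhesive proteins of basement membranes, the sheets on which ductal epithelium rests.

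Recovered gene counts summed to 83981154 to 97762802 reads per library. The treatment was visible in the proliferation gene MKI67, at 24.3 to 37.4 normalized reads in FOLFIRINOX and 9761 to 16160.4 in vehicle, and in the p53 target CDKN1A, at 179712 to 234374 against 17018 to 26999. Of 12 ductal epithelial markers 6 could be tested, of which 2 fell (33.3%, beside 12.2% of all genes tested). KRT18 stood at 7148 ± 363 (SD, n = 3) in FOLFIRINOX and 9901 ± 905 in vehicle. The ductal markers EPCAM and KRT23 were at 0 in all vehicle libraries and averaged at most 2.06 normalized reads in FOLFIRINOX. All 12 mesenchymal markers could be tested, of which 6 fell (50%) and 1 rose (8.33%, beside 11.4% of all genes tested). Their summed level was 851421 to 1095304 in FOLFIRINOX and 1330426 to 2006133 in vehicle. The share of reads from mitochondrial ribosomal RNA was 1.18% to 2.74% in FOLFIRINOX and 0.552% to 0.864% in vehicle, highest in P14 in each group. The part of these markers and of that share in the results below was not tested.

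Of the 38 genes, 27 had 10 or more normalized reads in at least 3 libraries and were tested, all of them with 2 or more such libraries in each group. A gene was called where limma, fitted to log2(normalized reads + 1) over 17951 genes, gave an adjusted p under 0.05. Of the 27, 4 were called higher in FOLFIRINOX, among them LAMA3, ITGB8 and LAMA4, where 11.4% of all genes tested were called higher. Another 8 were called lower, ITGB3, ITGA5, LAMA5, ITGA10, LAMB3, ITGA11, ITGB5 and ITGA4, where 12.2% of all genes were. These counts are 14.8% and 29.6% of the tested members. The members' median log2 difference was −0.32, beside 0.02 over all genes. In the authors' deposited table, 4 members had an adjusted p under 0.05 and were higher and 9 were lower, beside 9.5% and 9.89% of the 23247 genes with such a p there. Scaling every library to equal totals shifted the median of all genes to 0.13, and 2684 genes were then called higher and 1698 lower, against 2047 and 2191 with the deposited scaling.

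**Figure D1:**
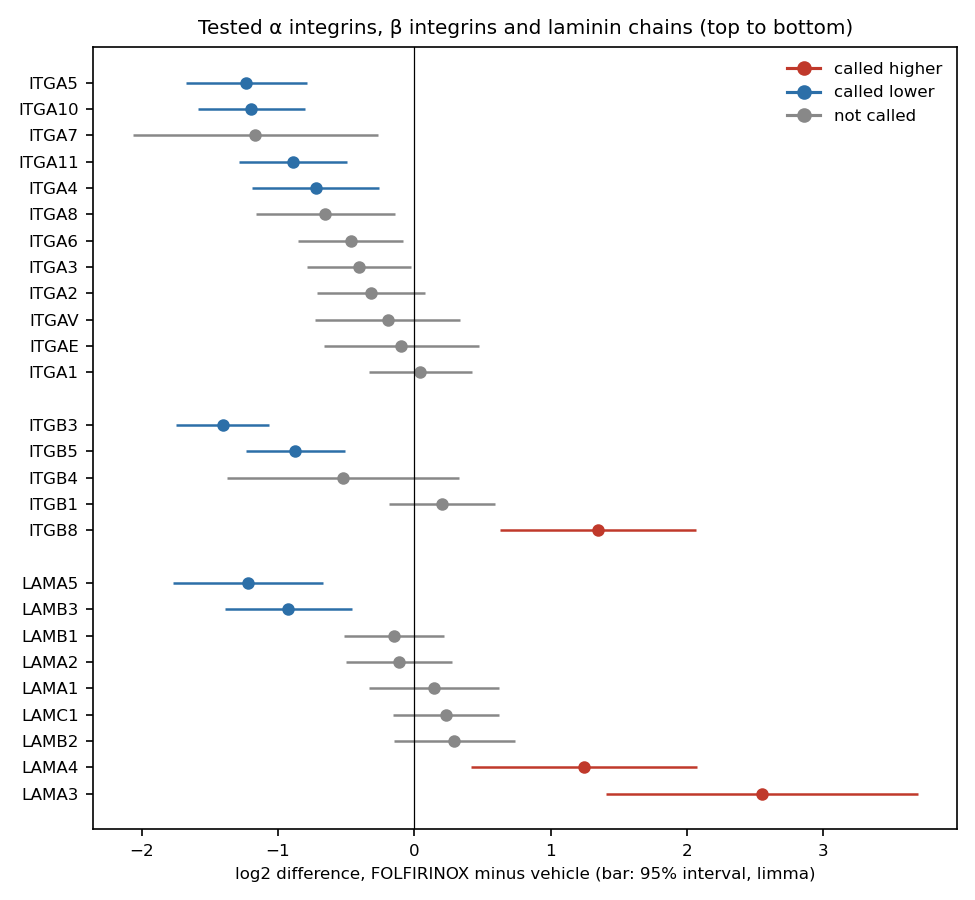
Of the tested genes 26 are listed by family on the vertical axis, with the log2 difference between FOLFIRINOX and vehicle and its 95% interval from limma on the horizontal axis. The highest α integrin is ITGA1 at 0.04, whereas the laminin chains range from −1.22 for LAMA5 to 2.55 for LAMA3.

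When libraries were compared within their P number (replicate block), 5 members were called higher and 13 lower, against 22.3% and 21.8% of all genes. The added calls were LAMB2 on the higher side and ITGA2, ITGA3, ITGA6, ITGA7 and ITGA8 on the lower side. Groups did not overlap for 4 members on the higher side and 11 on the lower side, where the same held for 19.9% and 19.6% of all genes tested.

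**Figure D2:**
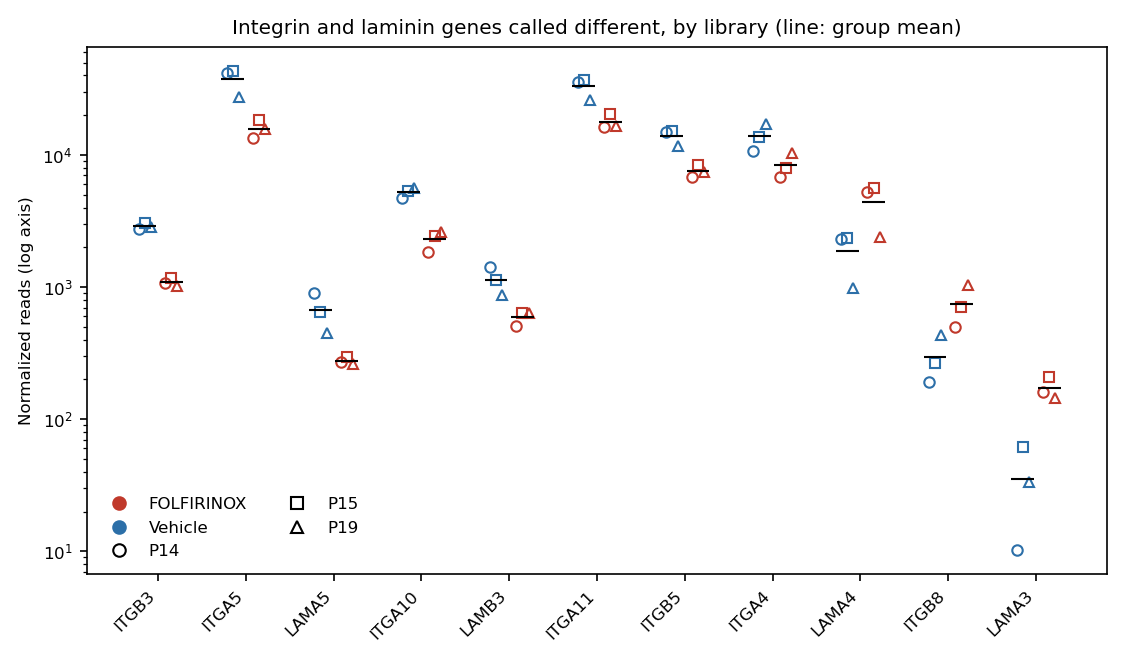
Normalized reads of 11 called genes are plotted on a log axis for each of the 6 libraries, with symbols for the P number and a line at each group mean. FOLFIRINOX and vehicle libraries do not overlap for any of them, and the P19 libraries of LAMA4 sit below the P14 and P15 libraries in both groups.

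Among receptors of RGD-containing ligands, the α5 subunit and the αV partners β3 and β5 fell while β8 rose. ITGB3 (chromosome 17, 47253846 to 47311816, plus strand, GRCh38) encodes β3, which pairs with αV to bind vitronectin and fibronectin. In the order P14, P15, P19, used for all values below, it had 1079, 1179 and 1016 normalized reads in FOLFIRINOX and 2776, 3036 and 2859 in vehicle. The highest treated library was thus below the lowest vehicle library by more than the spread within either group. Its log2 difference was −1.41 ± 0.16 (SE, limma adjusted p = 9.1e-05), a 2.65-fold fall.

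ITGA5 (chromosome 12, 54395261 to 54419460, minus strand) encodes α5, the main fibronectin receptor subunit with β1. Its values were 13509, 18356 and 15651 in FOLFIRINOX and 42078, 43278 and 27613 in vehicle. All treated libraries were lower, and vehicle P19 was the lowest of its group. The log2 difference was −1.23 ± 0.20 (adjusted p = 0.00144), and within P14, P15 and P19 it was −1.64, −1.24 and −0.82.

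ITGB5, the β5 subunit that pairs only with αV and binds vitronectin, gave 6872, 8435 and 7408 in FOLFIRINOX and 14819.8, 15252 and 11667 in vehicle (log2 difference −0.87 ± 0.17, adjusted p = 0.00344). As for ITGA5, vehicle P19 lay nearest to the treated libraries. ITGAV, the α subunit shared by these receptors, was 15278, 21298 and 29113 in FOLFIRINOX and 18983, 25017 and 29839.8 in vehicle. The groups overlapped widely, P19 was highest in each, and the log2 difference was −0.19 (95% interval −0.73 to 0.34, adjusted p = 0.601).

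ITGB8 (chromosome 7, 20330702 to 20415754, plus strand), whose αVβ8 receptor is known for releasing active TGF-β from its latent complex, went the other way. Its values were 499, 708 and 1038 in FOLFIRINOX and 191, 267 and 434 in vehicle. The ratio within each P number was similar, at log2 differences of 1.38, 1.40 and 1.26, although P19 was the highest library of each group. Over the groups the difference was 1.35 ± 0.33 (adjusted p = 0.0127), a 2.55-fold rise. Without vehicle P14 the call was lost (adjusted p = 0.0574), as it was with limma without trend (0.0536). The replicate block gave an adjusted p of 3.9e-08. A transcript antisense to ITGB8, ITGB8-AS1, shares 98 exonic bases with it and had 14.9 to 42.0 normalized reads.

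Of the remaining RGD receptor genes, ITGA8 was low, at 176 to 214 in FOLFIRINOX and 252 to 395 in vehicle. Its difference of −0.65 was not called (adjusted p = 0.0638, and 0.00579 with the replicate block). ITGB6, the β6 subunit of epithelial αVβ6, and ITGA2B, the platelet αIIb subunit, stayed at or below 18.7 normalized reads in every library and were not tested. Of 8 platelet markers none could be tested, with summed levels of 4.92 to 16.8 in FOLFIRINOX and 3.74 to 8.20 in vehicle.

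Genes of the collagen receptors, in which 4 different α subunits pair with β1, did not move together. ITGA11 (chromosome 15, 68296533 to 68432162, minus strand), which binds fibrillar collagen and is known from fibroblasts, fell from 35975, 37257 and 26000.3 in the vehicle libraries to 16349, 20405 and 16484 in FOLFIRINOX. Its log2 difference was −0.89 ± 0.18 (adjusted p = 0.00507, 0.0520 without both P14 libraries and 7.1e-08 with the replicate block). ITGA10 (chromosome 1, 145891208 to 145910189, minus strand), known as a cartilage collagen receptor, fell from 4719, 5356 and 5601 to 1837, 2432 and 2628.

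The ITGA10 difference was −1.20 ± 0.18 (adjusted p = 7.6e-04) and kept nearly the same size within P14, P15 and P19, at −1.36, −1.14 and −1.09. ITGA1, the α1 subunit that prefers collagen IV of basement membranes, was 7005, 7916 and 9612 in FOLFIRINOX and 6909.9, 8096 and 8721 in vehicle. These values overlapped, with a difference of 0.04 (95% interval −0.34 to 0.42, adjusted p = 0.881). ITGA2, the α2 subunit that prefers fibrillar collagen I, was 5691, 7466 and 8403 against 8065, 8614 and 9978. Its groups also overlapped (−0.32 ± 0.18, adjusted p = 0.230, and 0.0220 with the replicate block).

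On the per-length scale, normalized reads per kb of exon, ITGA10 stood at 1.89 to 2.01 times ITGA1 in the vehicle libraries and at 0.771 to 0.903 times in FOLFIRINOX. On this scale the order of these α subunits was thus opposite in the groups, whereas in normalized reads ITGA1 exceeded ITGA10 in all 6 libraries. The exonic length was 18.566 kb for ITGA1 and 6.32 kb for ITGA10, so the order depends on the lengths used. PELO, a gene that lies within ITGA1 on the same strand and shares 475 exonic bases with it, had a mean of 7411 normalized reads, so part of the ITGA1 count may be affected.

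The laminin receptor subunits α3, α6, α7 and β4 were lower on average in FOLFIRINOX. None was called in the main, unpaired fit. Of the alternatives tried, with or without the replicate block, 3 called ITGA3, 4 called ITGA6, 5 called ITGA7 and 0 called ITGB4. ITGA3, α3 of the laminin receptor α3β1, was 12282, 15127 and 13588 in FOLFIRINOX and 20409, 19727 and 14614 in vehicle. Treated P15 lay above vehicle P19, so the groups overlapped, and the difference was −0.41 ± 0.17 (adjusted p = 0.116, and 0.00482 with the replicate block). ITGA6, α6 of α6β1 and α6β4, was 8392, 10120.2 and 10324 against 11039.5, 13301 and 15765. Its groups did not overlap (−0.47 ± 0.17, adjusted p = 0.0773, and 8.1e-04 with the replicate block).

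ITGA7, the muscle laminin receptor subunit, had 22.4 to 52.1 normalized reads in FOLFIRINOX and 57.9 to 131 in vehicle. It was not called in the main fit (−1.17 ± 0.41, adjusted p = 0.0621, or 0.00201 when paired). The authors' deposited adjusted p for ITGA7 was 0.0432. Part of its exons overlap METTL7B on the opposite strand. ITGB4, the β4 subunit that anchors hemidesmosomes to laminin, had 15.7 to 26.7 in FOLFIRINOX and 26.2 to 34.8 in vehicle (adjusted p = 0.356). Per kb of exon, ITGA6 exceeded ITGB4 by 325 to 666 times in FOLFIRINOX and 328 to 624 times in vehicle, so very little β4 RNA accompanied α6 in either group.

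ITGB1, the β1 subunit common to the collagen receptors, the α3, α5 and α6 laminin and fibronectin receptors and others, was the most abundant member. Its values were 303770.3, 245443 and 300102 in FOLFIRINOX and 217689.5, 223976 and 299857 in vehicle. The P19 libraries were almost equal, and the difference was 0.20 (95% interval −0.18 to 0.59, adjusted p = 0.434). A processed pseudogene with similar sequence, ITGB1P1, had 1010.1 to 1613 normalized reads, so a small part of the β1 count may have been assigned to it.

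ITGA4 (chromosome 2, 181457202 to 181536187, plus strand) encodes α4, which binds fibronectin and the vascular adhesion protein VCAM1 and is best known from leukocytes. It was 6834, 7905 and 10394 in FOLFIRINOX and 10799.8, 13677 and 17154 in vehicle. Treated P19 came close to vehicle P14 without reaching it. The difference was −0.72 ± 0.21 (adjusted p = 0.0296), and the call was lost without FOLFIRINOX P14, FOLFIRINOX P15, vehicle P15 or vehicle P19 (adjusted p = 0.0942, 0.0829, 0.0697 and 0.0723). With equal totals and with limma without trend it was also lost (adjusted p = 0.0568 and 0.0894). Within P14, P15 and P19 the difference was −0.66, −0.79 and −0.72, and with the replicate block the adjusted p was 2.1e-06. ITGA9, a relative of α4, had 1.87 to 8.49 normalized reads and was not tested. An antisense gene, ITGA9-AS1, shares 535 exonic bases with ITGA9 and had 194 to 231.

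Of 7 integrin genes known chiefly from leukocytes (ITGAD, ITGAE, ITGAL, ITGAM, ITGAX, ITGB2 and ITGB7), only ITGAE could be tested. ITGAD had no read in any library, and ITGAM and ITGAX had 2 reads each, all in FOLFIRINOX P14. ITGAL, ITGB2 and ITGB7 stayed at or below 10.6 normalized reads. Leukocyte markers were likewise low, with summed levels over 12 genes of 63.8 to 148 in FOLFIRINOX and 158 to 245 in vehicle, and NKG7 at 0 throughout. Of these markers 3 could be tested, of which 2 were called lower (66.7%) and 0 higher. Over all genes tested, 12.2% were called lower and 11.4% higher. ITGAE, αE of the receptor for E-cadherin, was 2377, 1536 and 1431 against 2657, 1519 and 1581, with P14 highest in each group and no called difference (−0.10, 95% interval −0.66 to 0.47, adjusted p = 0.819). ITGAE overlaps HASPIN on the opposite strand by 427 exonic bases.

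Summed over all 18 α integrins, the level per kb of exon was 10334, 13008 and 13652 in FOLFIRINOX and 18921, 20628 and 18645 in vehicle, with no overlap between groups. The same sum over the 8 β integrins, which was nearly all ITGB1, overlapped at 42461 to 51886 and 39164 to 52382. Fewer cells of a type and less RNA per cell cannot be told apart in such bulk libraries. In vehicle, ITGA5 held the largest share of α integrin reads per kb, 25.5% ± 5.25 (SD, n = 3), followed by ITGA11 at 15.65% ± 2.48 and ITGAV at 15.5% ± 3.69, which do not differ beyond their spread. In FOLFIRINOX, ITGAV came first at 21.3% ± 4.155, ahead of ITGA5 at 17.0% ± 1.76 and ITGA11 at 13.4% ± 1.96.

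ITGAV exceeded ITGA5 per kb by 1.04 to 1.72 times in the FOLFIRINOX libraries and was 0.416 to 0.997 times ITGA5 in vehicle. The ITGAV share overlapped between groups, whereas the ITGA5 share did not. Shares within a family do not depend on how libraries were scaled. Exonic length here is the union of all annotated exons, so genes with long untranslated ends, such as ITGA1 and ITGB8, are understated.

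**Figure D3:**
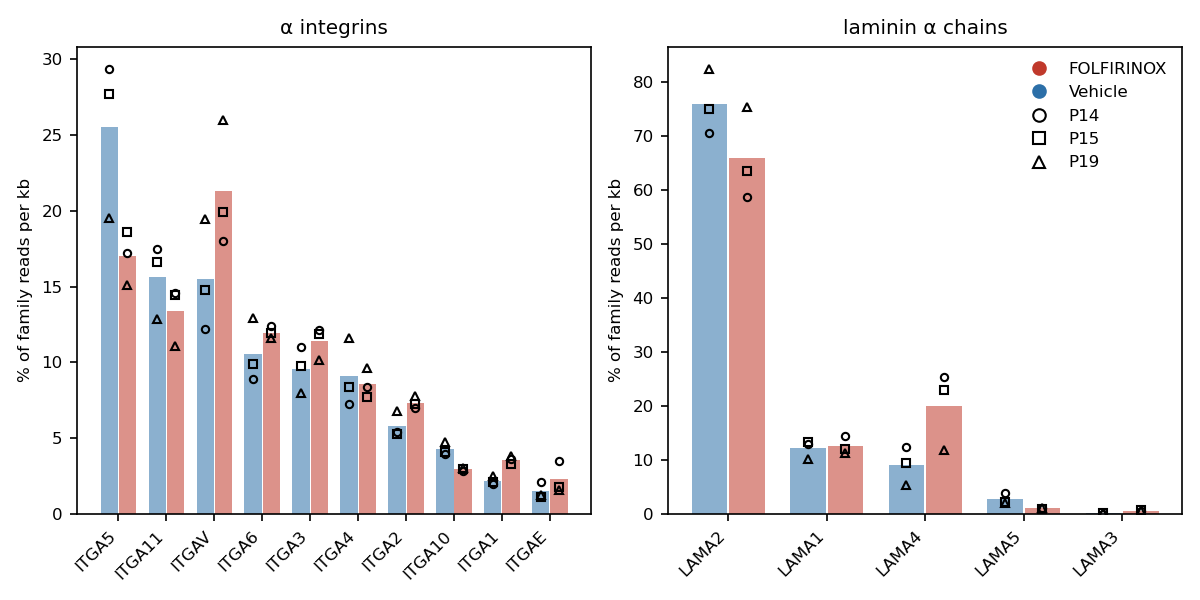
Bars give the mean share of each gene in the summed normalized reads per kb of exon of its family, in percent, with 1 symbol per library. ITGA5 makes up 25.5% of α integrins in vehicle and 17.0% in FOLFIRINOX, and LAMA4 9.08% and 20.0% of laminin α chains, with overlapping libraries.

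For αV partners the shift was larger. ITGB3 exceeded ITGB8 per kb by 50.3, 39.2 and 22.7 times in vehicle P14, P15 and P19 and by 7.46, 5.74 and 3.375 times in FOLFIRINOX. Per kb, the order ITGB1, ITGB5, ITGB3, ITGB8 held in every library of both groups, so β8 remained the scarcest of the αV partners that could be tested. In normalized reads ITGB8 exceeded ITGB3 in FOLFIRINOX P19, at 1038 and 1016. ITGB5 to ITGB3 ratios moved from 2.78 to 3.64 in vehicle to 4.34 to 4.97 in FOLFIRINOX.

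**Figure D4:**
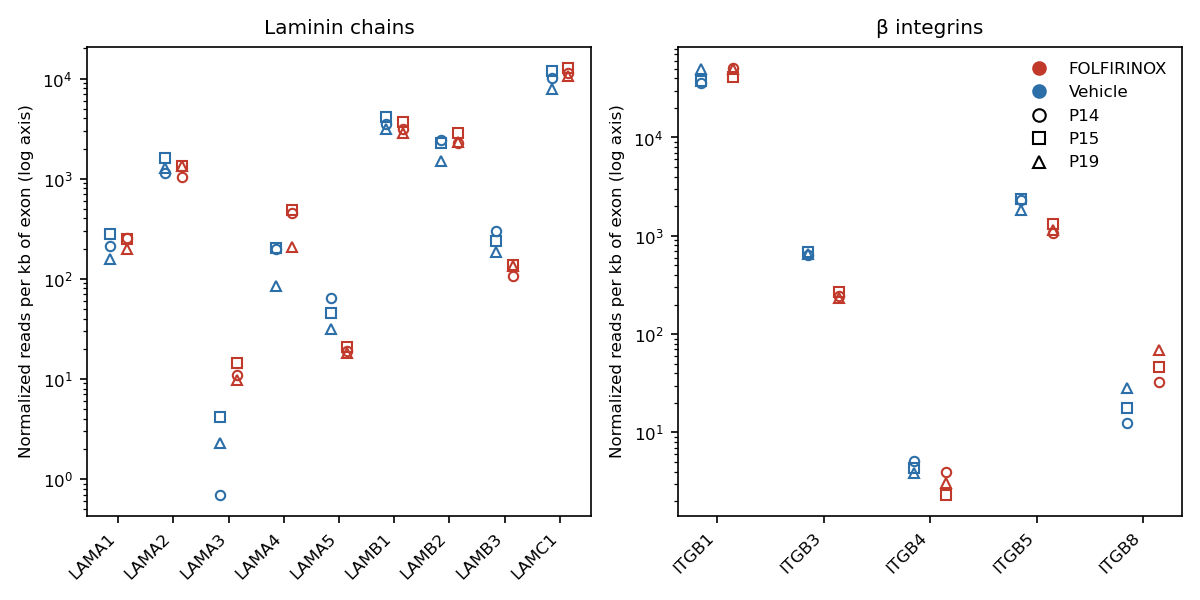
Normalized reads per kb of exon are plotted on a log axis for 9 laminin chains and 5 β integrins, 1 symbol per library. LAMA3 is the lowest of these laminin chains, at a mean of 11.6 in FOLFIRINOX and 2.39 in vehicle.

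The laminin chains LAMA3 and LAMB3, through which ductal and stratified epithelia anchor to the basement membrane, moved in opposite directions, LAMA3 up and LAMB3 down. LAMA3 (chromosome 18, 23689443 to 23956222, plus strand), the α3 chain, read 159, 209 and 144 in FOLFIRINOX and 10.2, 61.5 and 33.6 in vehicle. Vehicle P14, with 10 reads, was the lowest by far, and the difference within P14, P15 and P19 was 3.83, 1.75 and 2.06. Over the groups it was 2.55 ± 0.52 (adjusted p = 0.00510), 1.87 without vehicle P14 (adjusted p = 0.00625) and 1.91 without both P14 libraries (adjusted p = 0.0181). LAMA3 has a long and a short transcript from separate promoters, which the gene count does not separate.

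LAMB3 (chromosome 1, 209614870 to 209652466, minus strand), the β3 chain, read 504, 641 and 631 in FOLFIRINOX and 1419, 1123 and 875 in vehicle. All treated libraries were lower, but the fall narrowed from −1.49 in P14 to −0.81 in P15 and −0.47 in P19. Over the groups it was −0.92 ± 0.21 (adjusted p = 0.00975), and without both P14 libraries −0.64 (adjusted p = 0.0922). The replicate block gave an adjusted p of 2.6e-05.

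Per kb of exon LAMA3 was scarcer than LAMB3 in both groups, at 11.6 normalized reads per kb in FOLFIRINOX and 2.39 in vehicle on average, beside 126 and 243 for LAMB3. LAMB3 exceeded LAMA3 by 57.1 to 434 times in the vehicle libraries and by 9.58 to 13.7 times in FOLFIRINOX, without overlap, and the highest vehicle ratio was that of P14, where LAMA3 had 10 reads. Of 12 stratified and basal epithelial markers, 5 could be tested. Of these 4 rose and 1 fell, where 11.4% and 12.2% of all genes tested did. DSG3 and COL17A1 among those that rose passed the filter on low values only through FOLFIRINOX. KRT17, a basal keratin, had 204 to 324 normalized reads in FOLFIRINOX and 0 to 16.4 in vehicle. The gene that fell was another keratin of the list, KRT15, at 10.3 to 36.4 in FOLFIRINOX and 62.6 to 75.8 in vehicle. The summed level of the list was 13248 to 20267 against 4473 to 7622, mostly from DSC3, and KRT5, KRT6A and KRT6B had no read in any library. The part of these markers in the laminin results was not tested.

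Promoter sequence was described for the members whatever their direction of change. RefSeq sequences on GRCh38.p14 gave 33 windows of 250 bases before a start site for 26 members, 10 of the 12 called ones among them. The AP-1 motif TGANTCA, searched on both strands, was found in windows of LAMA3 and LAMB3 and of no other member, 6.06% of the member windows beside 6.57% of 35116 windows of the same length. The matches are shown with 10 bases on each side, 5′ to 3′ on the gene's strand, with the motif in capitals.
LAMA3, 125 bases before its start, chr18:23872885-23872911, plus strand: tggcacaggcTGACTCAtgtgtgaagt
LAMA3, 69 bases before its start, chr18:23872941-23872967, plus strand: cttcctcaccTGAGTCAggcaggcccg
LAMB3, 67 bases before its start, chr1:209651425-209651451, minus strand: tcagccactcTGACTCAttcactttgg
The distance is that from the start site to the motif's first base. The LAMB3 match and the nearer LAMA3 match lie at almost the same distance from their start sites. Both start sites lie inside their genes, at 23873020 on chromosome 18 for LAMA3 and at 209651374 on chromosome 1 for LAMB3, and the other 2 LAMB3 windows, at the gene's 5′ end, held no match. The GC box GGGCGG was in 51.5% of member windows and 42.6% of all windows, TATAAA in 6.06% and 10.7%, and the p53 half-site consensus in 0 of 33 member windows and 5.57% of all windows. A match or its absence describes only the letters in these windows.

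The α chains LAMA4 and LAMA5 also moved in opposite directions, while the chains they pair with were not called. LAMA4 (chromosome 6, 112108760 to 112254939, minus strand), the α4 chain of laminin-411, known from mesenchymal and vascular basement membranes, read 5229, 5616 and 2410.4 in FOLFIRINOX and 2314, 2334 and 978 in vehicle. Library P19 was lowest in each group, and treated P19 barely exceeded vehicle P15. Within P14, P15 and P19 the rise was 1.18, 1.27 and 1.30, so the change was even where the levels were not. Over the groups it was 1.25 ± 0.38 (adjusted p = 0.0346), and the call was lost without FOLFIRINOX P14, FOLFIRINOX P15 or vehicle P19 (adjusted p = 0.10, 0.109 and 0.0707), without both P14 libraries (0.127) or with limma without trend (0.112). With the replicate block the adjusted p was 5.7e-10.

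LAMA5 (chromosome 20, 62307955 to 62367312, minus strand), the α5 chain of laminin-511 in mature epithelial basement membranes, read 269.5, 298 and 260.6 in FOLFIRINOX and 909.7, 653 and 450.5 in vehicle. The treated libraries were close to each other, whereas vehicle spread over a wide range, with P14 highest. The difference was −1.22 ± 0.25 (adjusted p = 0.00525), a 2.33-fold fall. ADRM1 overlaps LAMA5 by 244 exonic bases on the opposite strand and had a mean of 3852 normalized reads, so the LAMA5 count is uncertain.

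LAMA2, the α2 chain of laminin-211, was 10853, 13875 and 13721 in FOLFIRINOX and 11830.4, 16468 and 13380.1 in vehicle (−0.11, 95% interval −0.50 to 0.28, adjusted p = 0.685). LAMA1, the α1 chain of the early embryonic laminin-111, was 4067, 3998 and 3123 against 3346, 4457 and 2517 (0.15, 95% interval −0.33 to 0.62, adjusted p = 0.668). LAMA2 was thus the most abundant α chain per kb in every library. LAMA4 stood at 0.533 to 0.948 times LAMA1 per kb in vehicle and at 1.06 to 1.93 times in FOLFIRINOX. On that scale the order of these α chains changed in every P number, whereas in normalized reads LAMA4 stayed below LAMA1 in P19 of both groups.

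LAMC1 was the most abundant laminin chain in every library. LAMC1, the γ1 chain of most laminins, was 95325, 106277 and 89457 in FOLFIRINOX and 84984, 98955 and 66493 in vehicle (0.23, 95% interval −0.15 to 0.62, adjusted p = 0.371). LAMB1, the β1 chain, was 25761, 30139 and 23154 against 28473, 33759.6 and 25483 (−0.15, adjusted p = 0.558). LAMB2, the β2 chain of muscle, nerve and kidney laminins, was 15646, 19742 and 15892 against 16718, 15519.6 and 10290.2 (0.29 ± 0.20, adjusted p = 0.324, and 0.0453 with the replicate block). LAMB1 exceeded LAMB2 per kb by 1.23 to 1.39 times in FOLFIRINOX and 1.44 to 2.09 times in vehicle.

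LAMB4 and LAMC3 were not tested. LAMB4 had 7.87 to 16.5 normalized reads in FOLFIRINOX and 2.12 to 9.35 in vehicle, and LAMC3 had 2, 0 and 11 reads in the FOLFIRINOX libraries and none in vehicle. Summed levels per kb overlapped between groups for the laminin α chains, at 1758 to 2112 in FOLFIRINOX and 1569 to 2122 in vehicle, and for the β chains, at 5296 to 6716 and 4818 to 6648.

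For 6 of the 8 members that fell, the fall was largest in P14, and for 6 of the 8 it was smallest in P19, beside 45.6% and 36% of all 2191 genes called lower. ITGB3 was an exception and fell most in P19. The same gradient was seen in genes that are no members, such as ZYX at −1.31, −0.75 and −0.56 within P14, P15 and P19. Of the 27 tested members 22 differed in the same direction in all P numbers, 81.5% beside 65.2% of all genes tested.

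Genes that work with integrins and laminins were listed in 5 groups. Their counts stand beside 11.4% of all genes tested called higher and 12.2% called lower, or 22.3% and 21.8% with the replicate block. Of 31 tested genes of integrin adaptors and activators, 1 rose (3.23%) and 5 fell (16.1%), with a median of −0.23. The replicate block called 3 higher and 13 lower. ILK, the integrin-linked pseudokinase, fell from 24309.5 ± 2081 to 12607.5 ± 1117 (−0.95 ± 0.15, adjusted p = 0.00114). The adhesion proteins tensin (TNS1) and zyxin (ZYX) fell by 1.28 and 0.88 on the log2 scale. LIMS1, which encodes the ILK partner PINCH, rose from 28516 ± 2158 to 44447 ± 6055 (adjusted p = 0.0141), so ILK and this partner differed in opposite directions. Leaving out FOLFIRINOX P19 left 3 falling and 0 rising, leaving out vehicle P15 left 3 falling, and leaving out the P14 pair left 1 falling and 0 rising.

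Of 14 hemidesmosome and tetraspanin partners, 1 rose and 1 fell (7.14% each). TSPAN14, a tetraspanin, fell from 5939.7 ± 649 to 3167 ± 323. The gene counted as rising was COL17A1, a hemidesmosomal collagen, with 4, 2 and 4 reads in vehicle and 26, 25 and 32 in FOLFIRINOX, which passed the filter on low values only through FOLFIRINOX. Of 17 basement membrane partners and laminin receptors 4 rose (23.5%) and 3 fell (17.6%), and paired by P number 8 and 5 did. SDC1, a cell-surface heparan sulfate proteoglycan, rose from 427 ± 114 to 3882 ± 904 (3.19 ± 0.25, adjusted p = 5.5e-06). COL4A6 and COL4A5, whose collagen IV chains are joined in 1 network, rose by 1.53 and 0.76, whereas COL4A2 fell by 0.80 on the log2 scale. NID1, the nidogen that links laminin to collagen IV, fell from 16111 ± 2794 to 9218 ± 1073 (adjusted p = 0.00748), and DAG1, the laminin receptor dystroglycan, fell by 0.54 on the log2 scale. Only 1 gene of this list was called lower when vehicle P14, vehicle P15, FOLFIRINOX P14 or FOLFIRINOX P19 was left out, 0 when the P14 pair was, and 6 when vehicle P19 was.

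Of 21 matrix ligands of RGD and α4 or α9 integrins 7 rose (33.3%) and 5 fell (23.8%), and paired by P number 11 and 7 did. CCN3, counted among the 7, passed the filter on low values only through FOLFIRINOX. TNC, tenascin-C, a ligand of α9 and αV integrins, fell from 3013 ± 1115 to 199.6 ± 45.8 (−3.86 ± 0.29, adjusted p = 4.9e-06). EMILIN1 and THBS2 fell by 1.27 and 0.76 on the log2 scale. MFGE8, an RGD protein bound by αVβ3 and αVβ5, rose from 10603 ± 2732 to 30627 ± 6832 (adjusted p = 6.6e-04). TGFB2, whose latent form lacks the RGD motif, and CCN2, a matricellular integrin ligand, rose by 1.30 and 1.29. Fibronectin itself, FN1, was 1772696 to 2088514 in FOLFIRINOX and 2256764 to 3325798 in vehicle and was not called (adjusted p = 0.0513), but was with the replicate block (1.4e-04) and with edgeR on recovered reads (0.0234). The number that fell was 3 without FOLFIRINOX P19 and 2 without vehicle P15.

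Of 12 counter-receptors on other cells 1 rose (8.33%) and 2 fell (16.7%). The gene counted as rising was F11R, which encodes the junctional protein JAM-A, with 2, 8 and 0 reads in vehicle and 81, 131 and 95 in FOLFIRINOX. It passed the filter on low values only through the FOLFIRINOX libraries, so a difference was set by the filter and its p is not given. Its relative JAM3 fell from 5909 ± 116 to 3558 ± 374 and ICAM3 from 482 ± 52.0 to 283 ± 33.5. With the replicate block 5 fell. The falling genes numbered 1 without FOLFIRINOX P15, FOLFIRINOX P19, vehicle P14 or both P14 libraries, and 5 without vehicle P19. Medians of the 5 lists lay between −0.27 and 0.37, beside 0.02 for all genes tested.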

How the data were processed

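Polyadenylated RNA of 6 libraries, 3 per group, was prepared with KAPA RNA HyperPrep, per the labels' protocols. FastQC 0.12.1, STAR 2.7.11b, featureCounts 2.0.6, DESeq2 and GRCh38 are named per the submitters' processing notes. The annotation release, strand setting and model design were not given in the sources used here. The deposited signal is gene counts divided by 1 size factor per library. All values (100%) came out as whole reads within 0.001, and edgeR 4.0.16 on these reads called 1820 of 17951 genes higher and 2389 lower. The authors' deposited log2 fold changes, score (their test statistic) and p-values served only for comparison. Of values below 50 reads, 72.3% to 74.8% were even. Recovered reads may therefore not all be independent of each other, which matters most for low counts. The cause was not tested.

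The test was limma 3.58.1 in R 4.3.3, its variance trended on the mean, on log2(value + 1). Genes needed 10 normalized reads in 3 libraries, and p-values were adjusted by Benjamini and Hochberg's method, with a threshold of 0.05. This scale understates differences of low genes. The standard error had a median of 0.23. On simulated data for this comparison (17091 genes), calls were made for 4 of 67 genes set to 1.5-fold, 38 of 67 set to 2-fold and 64 of 66 set to 4-fold, and for 8 unchanged genes. The changed genes were drawn from those with a vehicle mean of 50 or more, and no difference between P numbers was simulated. These counts therefore do not cover lower genes such as ITGB4 and LAMA3. Far fewer genes were changed in the simulation than the 4238 of 17951 called in the data. The adjustment of p-values was thus stricter in the simulation, and its counts may understate recovery. Columns were assigned to groups only, since their P numbers stand in no label. Deviations from the group means correlated at 0.257 to 0.288 between libraries of equal P number and at −0.26 to −0.03 between others. Equal numbers were therefore read as pairs in the replicate block, which was an alternative. The main calls, standard errors and intervals come from the unpaired fit, which leaves differences between P numbers in the error. The labels do not say whether libraries are separate cultures, and p-values therefore reflect the spread between these libraries, which may be technical. Replicates differed beyond sampling noise, with a chi-square per degree of freedom of 76.0 to 231.

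GENCODE 29 gave positions and exonic lengths on GRCh38. The members, gene lists and tests were chosen with earlier results of these data known. All members may be named, and of each partner list at most 3 called genes per direction, those with the greatest change whose higher group averaged at least 100. COL17A1, CCN3, FN1, the marker genes named and the ratios between members were chosen after their values were seen. Genes withheld from the text are counted in the totals and lists but not reported here. Alternatives tried were other pseudocounts (0.5, 8), filters (none, 50), scalings and tests, removal of a GC trend, the replicate block, and omission of libraries.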

Additional observations from a re-analysis of the deposited data

How the results depend on the processing

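Members called higher (4) numbered 2 with limma without trend and 3 to 4 with 1 library left out. Members called lower (8) numbered 13 with the replicate block, 14 with the replicate block and the GC trend removed, and 7 to 10 with 1 library left out. No called member changed sign under any alternative tried. Among members near 0, ITGA1 was −0.12 with the GC trend removed, with or without the block, and −0.080 to 0.15 with 1 library left out (−0.05 without vehicle P14). ITGAE was 0.013 with equal totals, 0.0064 with quantile scaling, 2.0e-04 with the GC trend removed, with or without the block, and −0.32 to 0.16 with 1 library left out (0.04 without FOLFIRINOX P19). With 1 library left out ITGAV ranged from −0.42 to 0.041, LAMA1 from −0.061 to 0.35 and LAMA2 from −0.22 to 0.018 (0.0037 without FOLFIRINOX P14). The cause was not tested.

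Over all genes, 3995 were called higher and 3918 lower under the replicate block, 4077 and 4718 once a GC trend was removed too, 1318 higher without FOLFIRINOX P19, and 1162 and 1368 without both P14 libraries. In the partner lists, the block called 3 adaptors higher and 13 lower, 2 and 3 hemidesmosome genes, 8 and 5 basement membrane genes, 11 ligands higher and 5 counter-receptors lower. With the GC trend also removed these were 6 and 15, 2 and 3, 9 and 6, 11, and 6. GC removal alone called 3 and 8 adaptors and 2 hemidesmosome genes higher. Equal totals called 3 adaptors higher and 3 ligands lower, and quantile scaling 2 and 2. Without trend, 3 adaptors and 1 basement membrane gene were lower. With no filter, 3 ligands were lower and 2 counter-receptors higher, and at 50 or more 0 hemidesmosome genes were higher. Without both P14 libraries, adaptors numbered 0 higher and 1 lower, basement membrane genes 0 lower and counter-receptors 1 lower. With 1 library left out, adaptors ranged from 0 to 1 higher and 3 to 7 lower, basement membrane genes from 1 to 6 lower, ligands from 2 to 6 lower and counter-receptors from 1 to 5 lower. The tested members with means under 100 normalized reads in both groups, ITGA7 and ITGB4, had wide intervals, and 11 members were too low to test.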

Other observations

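Genes that carry an integrin name without encoding a subunit matched by the rule were measured too. ITGBL1, an integrin-β-like secreted protein, had 460, 384 and 555 normalized reads in FOLFIRINOX P14, P15 and P19 and 293, 324 and 381 in vehicle. All treated libraries lay above all vehicle libraries, and the log2 difference of 0.48 ± 0.21 was not called (limma adjusted p = 0.125, and 0.0222 with the replicate block). ITGB3BP, a centromere protein that also binds the β3 tail, had 891 to 2198 in FOLFIRINOX and 1120.4 to 2560.1 in vehicle, with overlapping groups (−0.45 ± 0.36, adjusted p = 0.390, and 0.00812 with the replicate block). ITGB1BP1, which binds the β1 tail, differed by −0.17 ± 0.17 and was not called (adjusted p = 0.511).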
